A study of Homo sapiens with 12 samples.

Results

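HAS2, CEMIP, TMEM2, CD44, TNFAIP6 and VCAN, genes whose proteins make, break down or bind the matrix polysaccharide hyaluronan, were followed by RNA sequencing in WI-38, an established line of human fetal lung fibroblasts. The genes were chosen by symbol, with earlier results of these data known, and all 6 were present among the 13937 genes of the deposited expression table. The 12 libraries formed 6 groups of 2, all of them transfected with siRNAs. The control group received a control siRNA (siAS), and the YT group received siRNAs against YAP and TAZ, the transcriptional co-activators of the Hippo pathway, with siAS. The cGAS group received siRNA against cGAS, the cytosolic DNA sensor, with siAS, and the STING group received siRNA against STING, the adaptor that cGAS signals through, with siAS. The cGAS_YT and STING_YT groups received the YAP and TAZ siRNAs in place of siAS. Every group was thus compared with transfected cells, and no untransfected group was analysed. The sources used here give neither the siRNA sequences nor the meaning of "4x" in the names of the cGAS and STING siRNAs. The labels do not tell whether libraries of a group came from separate cultures, so each p-value reflects the scatter between libraries, and that scatter could be technical.

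Hyaluronan is a long unsulfated sugar chain that synthases, of which HAS2 is the main one in fibroblasts, extrude through the plasma membrane. In the matrix it is held by versican, the proteoglycan encoded by VCAN, and it can be modified by TSG-6, the product of TNFAIP6, which moves protein chains from inter-alpha-inhibitor onto it. Cells grip it through CD44. Fibroblasts cut it at or near the cell surface with CEMIP, before fragments are taken up and degraded in lysosomes. TMEM2 (now named CEMIP2) encodes a transmembrane relative of CEMIP, and whether that protein cuts hyaluronan in these cells was not tested.

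The libraries held 17790774 to 20650727 reads, prepared from transcript 3′ ends, so a gene's level is given as its reads scaled to library size (CPM) with no correction for length, and splice forms such as CD44 variants were not separated. YAP1 stood at 13.4% and WWTR1 (TAZ) at 14.2% of the control level in YT, MB21D1 (cGAS) at 23.6% in cGAS, and TMEM173 (STING) at 7.39% in STING. In the groups with both kinds of siRNA, YAP1 stood at 21.1% in cGAS_YT and 13.1% in STING_YT, and WWTR1 at 13.2% and 8.70%, so YAP1 was less depleted in cGAS_YT (23.1 ± 2.06 (SD, n = 2) CPM) than in YT (14.6 ± 2.30 CPM). MB21D1 was at 18.7% in cGAS_YT, and TMEM173 at 6.66% in STING_YT. MB21D1 was also at 64.4% of control in STING, a difference that did not pass the test (limma, adjusted p = 0.124). WWTR1 was at 68.9% in cGAS and 72.4% in STING, and both differences passed (limma, adjusted p = 0.00426 and 0.0183). WWTR1 was lower in STING_YT (12.1 ± 0.906 (SD, n = 2) CPM) than in YT (19.8 ± 4.31 CPM). All 10 fibroblast markers on a list of 10 were measured, at a summed level of 22812 to 37059 CPM over the libraries. The sum in cGAS (22812 and 23800.0 CPM) was below control (33099 and 33696 CPM). It was also below control in YT (27256 and 29235 CPM), cGAS_YT (22911 and 25991 CPM) and STING (30117 and 30362 CPM). In STING_YT it was above control (34413 and 37059 CPM). COL1A1, the largest part of the sum, had a mean of 10248 CPM in cGAS and 18185 CPM in control. COL1A2, PDGFRA, PDGFRB and VIM were also lower in cGAS, and DCN was close to control (1481 against 1496 CPM). LUM stood at 151% of control in cGAS, COL3A1 at 122%, THY1 at 117% and FAP at 116%, so the markers did not fall as a set. Of markers of other cells, 0 of 4 endothelial, 2 of 5 epithelial (KRT15 and KRT19, 3.45 to 16.6 CPM together), 2 of 5 immune (CD68 and CD14, 3.83 to 6.56 CPM) and 3 of 4 smooth muscle or pericyte genes (64.7 to 99.7 CPM) were in the table. The part of these differences in the results was not tested.

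HAS2, the synthase, was a low gene that was highest after cGAS siRNA alone. Its level was 4.26 and 3.35 CPM in the control libraries, 9.83 and 4.58 CPM in YT, 11.97 and 12.5 CPM in cGAS, 6.33 and 5.14 CPM in cGAS_YT, 1.995 and 2.84 CPM in STING, and 3.05 and 3.10 CPM in STING_YT. Both cGAS libraries lay above every other library, and the YT libraries differed from each other more than those of any other group, with cGAS_YT lying inside the YT range. Against control, HAS2 rose by 1.47 ± 0.26 (SE) on the log2(CPM + 1) scale with cGAS siRNA (limma, adjusted p = 0.000507), while with STING siRNA the difference was -0.50 ± 0.26 (adjusted p = 0.225). With YAP and TAZ siRNAs it rose by 0.70 ± 0.26 (adjusted p = 0.0389), a call that was lost without YT library 3 (0.22, adjusted p = 0.498), without control library 1 (adjusted p = 0.0588) or 2 (adjusted p = 0.21), and when only those groups were fitted (adjusted p = 0.116). The gene lies on chromosome 8, minus strand, from 121612116 to 121641390 (GENCODE 29, GRCh38) and shares 2098 bases with HAS2-AS1 on the other strand. HAS2-AS1 was counted at 0.236 to 2.17 CPM and passed no test in any of the 11 comparisons. In bulk RNA, fewer cells expressing a gene and less RNA per cell cannot be told apart, for HAS2 and for the genes that follow.

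CEMIP, which is required for hyaluronan breakdown by skin fibroblasts, was lower than control in every other siRNA group. Its level was 107 and 92.8 CPM in control, 61.2 and 53.1 CPM in STING, 36.3 and 30.0 CPM in YT, 14.5 and 13.5 CPM in cGAS, 12.8 and 8.13 CPM in STING_YT, and 8.60 and 8.66 CPM in cGAS_YT. In that order the groups did not overlap, apart from STING_YT, whose range held both cGAS_YT libraries. The mean fell to 57.3% of control in STING, 33.2% in YT, 14.02% in cGAS, 10.5% in STING_YT and 8.65% in cGAS_YT. The fitted change was -2.75 ± 0.17 with cGAS siRNA (adjusted p = 1.1e-08) and -1.56 ± 0.17 with YAP and TAZ siRNAs (adjusted p = 1.29e-06). With STING siRNA it was -0.79 ± 0.17 (adjusted p = 0.00385), a call lost without control library 1 (adjusted p = 0.0601) or STING library 14 (adjusted p = 0.0647). CEMIP lies on chromosome 15, plus strand, from 80779343 to 80951776. Its last 5488 bases overlap MESDC2 (MESD) on the minus strand, which stood at 209 to 288 CPM. That stretch holds the 3′ end of CEMIP, and the libraries were prepared from transcript 3′ ends. Reads behind the CEMIP level can therefore belong to either gene if strand was not used in counting.

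TMEM2, the membrane-bound relative of CEMIP, went the other way with the cGAS and the YAP and TAZ siRNAs. Its level was 27.4 and 20.7 CPM in control, 35.4 and 36.4 CPM in YT, 50.0 and 50.3 CPM in cGAS, 40.7 and 41.1 CPM in cGAS_YT, 16.3 and 17.1 CPM in STING, and 16.9 and 16.6 CPM in STING_YT. The YT, cGAS and cGAS_YT libraries all lay above control, and the STING and STING_YT libraries all lay below it and overlapped each other. TMEM2 rose by 1.04 ± 0.12 with cGAS siRNA (limma, adjusted p = 1.29e-05) and by 0.57 ± 0.12 with YAP and TAZ siRNAs (adjusted p = 0.00148). It fell by 0.49 ± 0.12 with STING siRNA (adjusted p = 0.0135), a call lost without control library 1 (-0.30, adjusted p = 0.18), STING library 13 (adjusted p = 0.104) or STING library 14 (adjusted p = 0.0647). TMEM2 lies on chromosome 9, minus strand, from 71683366 to 71816690.

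The level of CEMIP against that of TMEM2 within a library is given as a quantity to follow from library to library, not as a ratio of molecules. It was 3.89 and 4.47 in control and 3.76 and 3.10 in STING, the groups in which CEMIP had the higher reading in both libraries. It was 1.025 and 0.823 in YT and 0.754 and 0.491 in STING_YT. It was 0.290 and 0.268 in cGAS and 0.211 in each cGAS_YT library. Both genes were lower than control in STING, whereas in cGAS and cGAS_YT CEMIP was lower and TMEM2 higher than in control.

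**Figure D1:**
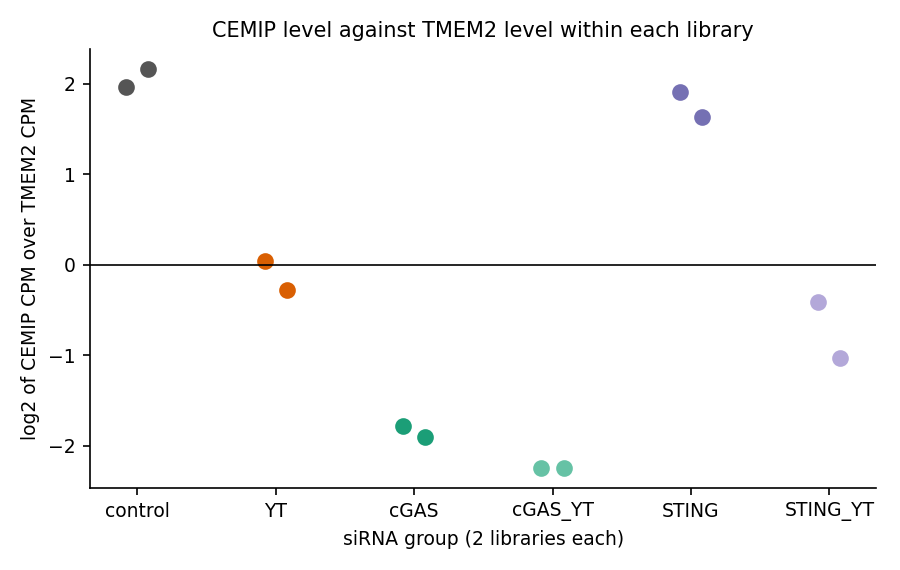
CEMIP level over TMEM2 level in each of the 12 libraries, as log2 of the ratio of CPM values (y axis), by siRNA group (x axis, 2 libraries each). Control (1.96 and 2.16) and STING (1.91 and 1.63) libraries lie above 0, and cGAS (-1.78 and -1.90) and cGAS_YT (-2.24 and -2.25) libraries lie lowest.

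CD44, the main cell-surface receptor for hyaluronan, was the most highly read of the 6 genes and fell mainly with the YAP and TAZ siRNAs. Its level was 1875 and 1934 CPM in control, 941 and 852 CPM in YT, 1723 and 1696 CPM in cGAS, 1590.2 and 1460.3 CPM in cGAS_YT, 1595 and 1508 CPM in STING, and 1005 and 952 CPM in STING_YT. The YT libraries were the lowest, followed by STING_YT, and both control libraries were the highest. The mean in YT was 47.1% of control, a change of -1.09 ± 0.09 on the log2 scale (limma, adjusted p = 5.29e-08). The cGAS difference was -0.16 ± 0.09 (adjusted p = 0.213). The STING difference was -0.30 ± 0.09 (adjusted p = 0.0317), a call that was lost without control 1, control 2, STING 13 or STING 14, with adjusted p from 0.0853 to 0.213. CD44 lies on chromosome 11, plus strand, from 35138870 to 35232402.

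TNFAIP6, whose product TSG-6 is secreted in inflamed tissue and crosslinks hyaluronan, had the widest fold range of group means of the 6 genes. Its level was 2.28 and 2.10 CPM in control, 6.60 and 5.04 CPM in YT, 11.5 and 8.79 CPM in cGAS, 6.71 and 4.05 CPM in cGAS_YT, 1.21 and 1.61 CPM in STING, and 0.666 and 0.508 CPM in STING_YT. The YT, cGAS and cGAS_YT libraries all lay above control, and the STING and STING_YT libraries all lay below it. TNFAIP6 rose by 1.79 ± 0.24 with cGAS siRNA (limma, adjusted p = 3.43e-05) and by 1.09 ± 0.24 with YAP and TAZ siRNAs (adjusted p = 0.0015), while the STING difference was -0.41 ± 0.24 (adjusted p = 0.277). These values rest on 10 to 208 reads a library, and adding 1 CPM before taking the log makes the changes of so low a gene smaller than on the count scale. TNFAIP6 lies on chromosome 2, plus strand, from 151357592 to 151380048.

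VCAN, the large proteoglycan that binds hyaluronan in the matrix, rose with the YAP and TAZ siRNAs and fell with the STING siRNA. Its level was 565 and 436 CPM in control, 766 and 773 CPM in YT, 545 and 538 CPM in cGAS, 661 and 755 CPM in cGAS_YT, 282 and 320.2 CPM in STING, and 577 and 611 CPM in STING_YT. The YT libraries were the highest and the STING libraries the lowest, and the cGAS libraries lay between the control libraries. VCAN rose by 0.63 ± 0.11 in YT (limma, adjusted p = 0.000201), fell by 0.72 ± 0.11 in STING (adjusted p = 0.00026), and differed by 0.12 ± 0.11 in cGAS (adjusted p = 0.445). VCAN lies on chromosome 5, plus strand, from 83471465 to 83582303.

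**Figure D2:**
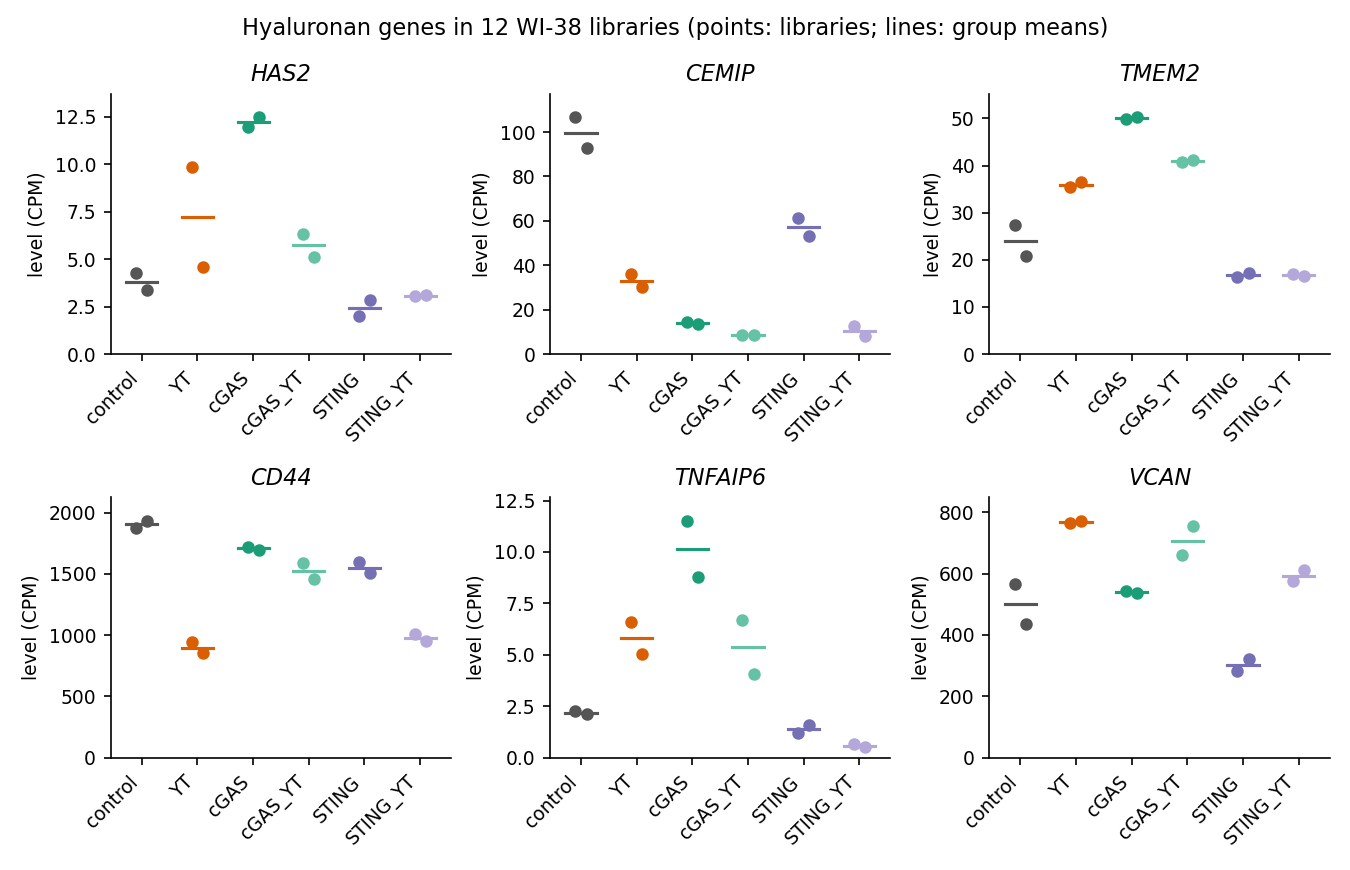
Level of each of the 6 genes in CPM (y axis, from 0) in the 12 libraries by siRNA group (x axis); points are libraries and lines are group means. CEMIP is highest in control (107 and 92.8 CPM), HAS2, TMEM2 and TNFAIP6 are highest in cGAS, CD44 is lowest in YT (941 and 852 CPM), and VCAN is lowest in STING.

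Across the 6 groups the fold from the lowest to the highest mean was 17.3 for TNFAIP6, 11.6 for CEMIP, 5.05 for HAS2, 3.002 for TMEM2, 2.55 for VCAN and 2.12 for CD44. On the log2(CPM + 1) scale this range was wider than that of 99.1% of the 13894 genes tested for CEMIP, 98.0% for TNFAIP6, 93.7% for HAS2, 87.8% for TMEM2, 83.5% for VCAN and 72.1% for CD44. Because the genes were chosen with earlier results of these data known, these shares are a description only. Each gene had one pair of neighbouring groups whose libraries overlapped. This pair was cGAS_YT and YT for HAS2 and TNFAIP6, cGAS_YT and STING_YT for CEMIP, STING and STING_YT for TMEM2, cGAS_YT and STING for CD44, and control and cGAS for VCAN. All other neighbours in the order of levels were apart, by the 2 libraries of each group. How often neighbouring groups are apart over all genes was not counted, so this order is not a trait particular to the 6 genes.

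CEMIP and TNFAIP6, whose levels moved in opposite directions after the YAP and TAZ siRNAs and after the cGAS siRNA, are shown with the 250 bases upstream of their start sites from RefSeq (GRCh38.p14), where 5 of the 6 genes had an entry. Both windows are on the plus strand, chr15:80779120-80779369 for CEMIP and chr2:151357342-151357591 for TNFAIP6, and capitals mark the motif matches.
CEMIP: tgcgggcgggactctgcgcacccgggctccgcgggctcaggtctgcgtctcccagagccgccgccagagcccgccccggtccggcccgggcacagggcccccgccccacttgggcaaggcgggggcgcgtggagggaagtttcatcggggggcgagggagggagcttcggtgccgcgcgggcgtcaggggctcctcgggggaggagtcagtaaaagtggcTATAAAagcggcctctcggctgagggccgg
TNFAIP6: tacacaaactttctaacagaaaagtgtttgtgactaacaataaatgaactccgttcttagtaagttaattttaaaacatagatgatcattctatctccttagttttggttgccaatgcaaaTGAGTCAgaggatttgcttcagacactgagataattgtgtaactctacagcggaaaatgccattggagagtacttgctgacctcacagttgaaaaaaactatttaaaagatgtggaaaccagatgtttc
The windows differ in base composition, with 74.4% G and C for CEMIP and 34.4% for TNFAIP6 against a median of 58.0% over the promoters in the table. Both strands were searched for a TEAD motif (GGAATG, in 11.9% of 35114 promoters), an AP-1 motif (TGANTCA, 6.57%), an NF-kB motif (9.96%), an interferon-stimulated response element (3.02%) and a TATA motif (TATAAA, 10.7%). CEMIP had TATAAA from -30 to -25 and TNFAIP6 had TGAGTCA from -129 to -123, counted from the RefSeq start site. The other motifs searched were not in these windows. The GENCODE start of CEMIP, 80779343, lies inside its window, so the position of the TATAAA match holds for the RefSeq start only. The TMEM2, CD44 and VCAN windows held none of the searched motifs. These windows (chr9:71768514-71768763, chr11:35138921-35139170 and chr5:83471494-83471743) lie inside the GENCODE spans given above for the genes. The absence of a motif therefore covers the bases before the RefSeq start only, and the bases before the GENCODE start were not searched. A match is a description of the letters in the window and does not show that a factor is bound there.

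The YAP and TAZ siRNAs were applied on 3 backgrounds, which asks whether their effect depends on cGAS or STING. On the control background all 6 genes passed the test: TNFAIP6, HAS2, VCAN and TMEM2 were higher in YT and CD44 and CEMIP lower, where 41.6% of all genes tested passed (20.6% higher and 20.9% lower). Of these 6 calls, 5 held in every alternative run, and that of HAS2 did not. On the cGAS siRNA background 1 of 6 was higher and 3 lower, where 27.7% of all genes passed (15% higher and 12.7% lower). On the STING siRNA background 1 of 6 was higher and 2 lower, where 38.9% passed (19.1% higher and 19.8% lower). VCAN was higher and CEMIP lower with the YAP and TAZ siRNAs on all 3 backgrounds. The median change of the 6 genes was 0.60 on the control background, -0.46 on the cGAS background and -0.30 on the STING background, beside 0.00, 0.03 and 0.03 over all genes.

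On the cGAS background the YAP and TAZ siRNAs lowered HAS2 by 0.98 ± 0.26 (limma, adjusted p = 0.00938) and TNFAIP6 by 0.83 ± 0.24 (adjusted p = 0.0152), where they had raised both on the control background. CEMIP fell by 0.64 ± 0.17 (adjusted p = 0.00848) from an already low level, and VCAN rose by 0.38 ± 0.11 (adjusted p = 0.0141). TMEM2 (-0.29 ± 0.12, adjusted p = 0.0996) and CD44 (-0.17 ± 0.09, 95% interval -0.35 to 0.02, adjusted p = 0.183) did not pass. Of the 4 calls, 0 held in every alternative run. HAS2 lost it without cGAS library 8 (adjusted p = 0.0647) or cGAS_YT library 10 (adjusted p = 0.0902), TNFAIP6 without cGAS library 7 (-0.65, adjusted p = 0.147) or cGAS_YT library 10 (-0.52, adjusted p = 0.216), CEMIP without cGAS library 7 (adjusted p = 0.0691), and VCAN without cGAS 7, cGAS 8 or cGAS_YT 10 (adjusted p from 0.0717 to 0.154).

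On the STING background they lowered CEMIP by 2.37 ± 0.17 (limma, adjusted p = 1.25e-08) and CD44 by 0.66 ± 0.09 (adjusted p = 1.6e-05) and raised VCAN by 0.98 ± 0.11 (adjusted p = 2.4e-06), and these 3 calls held in every alternative run. TMEM2 differed by 0.00 ± 0.12 (95% interval -0.26 to 0.27, adjusted p = 0.982) and HAS2 by 0.26 ± 0.26 (adjusted p = 0.445). TNFAIP6 differed by -0.60 ± 0.24 (adjusted p = 0.0556) and passed when its reads were tested with edgeR (-1.26, adjusted p = 0.0275) or DESeq2 (-1.28, adjusted p = 0.022).

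The difference of the YAP and TAZ effect between backgrounds was tested as an interaction, in which a positive value means a higher change than on the control background. YAP1 stood at 21.1% of control in cGAS_YT against 13.4% in YT, and the part of this difference in the interactions with cGAS siRNA was not tested. WWTR1 stood at 8.70% of control in STING_YT against 14.2% in YT. The part of that difference in the interactions with STING siRNA was not tested either. For cGAS siRNA 2 of 6 genes passed with a positive and 3 with a negative value, beside 13.4% of all genes tested (7.50% positive and 5.93% negative). For STING siRNA 1 passed with a positive and 2 with a negative value, beside 7.88% (3.35% positive and 4.53% negative). With cGAS siRNA the changes of TNFAIP6, HAS2 and TMEM2 were lower than on the control background, by differences of -1.91 ± 0.33 (limma, adjusted p = 0.00095), -1.68 ± 0.36 (adjusted p = 0.00529) and -0.86 ± 0.18 (adjusted p = 0.00347). The falls of CD44 and CEMIP were smaller on that background, by 0.92 ± 0.12 (adjusted p = 8.51e-05) and 0.93 ± 0.23 (adjusted p = 0.0137). With STING siRNA the change of TNFAIP6 was lower by 1.69 ± 0.33 (adjusted p = 0.00434), the fall of CEMIP was larger (-0.81 ± 0.23, adjusted p = 0.0439), and the fall of CD44 smaller (0.42 ± 0.12, adjusted p = 0.0466). VCAN passed neither interaction (-0.25 ± 0.15, adjusted p = 0.325, and 0.35 ± 0.15, adjusted p = 0.197), though that with STING siRNA passed without control 2 (0.53, adjusted p = 0.0366). The TMEM2 interaction with STING siRNA was -0.57 ± 0.18 (adjusted p = 0.0601) and passed without control 1 (-0.76, adjusted p = 0.0141) or YT 3 (-0.59, adjusted p = 0.0294). That of HAS2 was -0.44 ± 0.36 (adjusted p = 0.536). The CEMIP interaction with cGAS siRNA was lost without control 1 (adjusted p = 0.067) or cGAS 8 (adjusted p = 0.0605). The CEMIP interaction with STING siRNA was lost without control 1, control 2, STING 13, STING 14 or STING_YT 16 (adjusted p up to 0.205), and that of CD44 when any one library of the 4 groups other than YT 3 was left out (adjusted p from 0.0638 to 0.203).

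**Figure D3:**
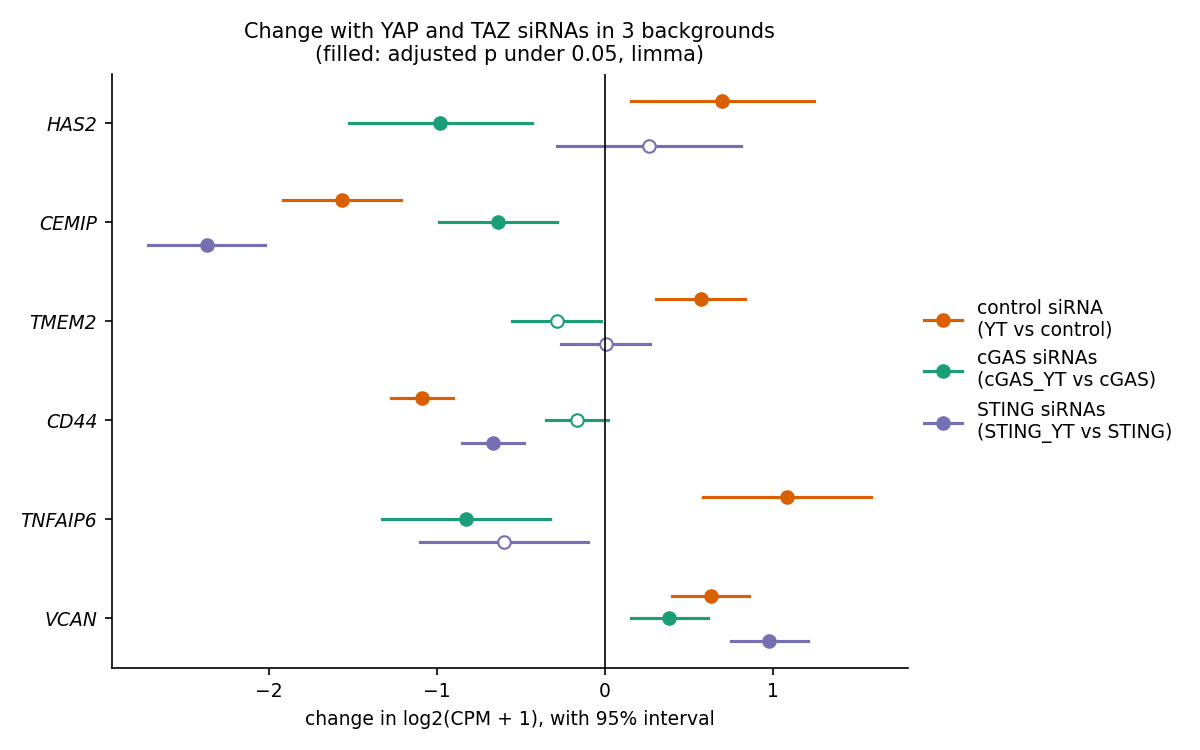
Change of each gene with the YAP and TAZ siRNAs on the control, cGAS siRNA and STING siRNA backgrounds (x axis, difference in log2(CPM + 1); bars are 95% intervals from limma; filled points have an adjusted p under 0.05). HAS2 and TNFAIP6 lie above 0 on the control background (0.70 and 1.09) and below 0 on the cGAS background (-0.98 and -0.83), and CEMIP lies below 0 on all 3.

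The cGAS and STING siRNAs were each compared with control, and again on the YAP and TAZ siRNA background; the comparisons with control share the control libraries, and those on the other background share the YT libraries. With cGAS siRNA 4 of 6 genes passed against control, beside 25.4% of all genes (11.1% higher and 14.3% lower): TNFAIP6, HAS2 and TMEM2 were higher and CEMIP lower, and these 4 calls held in every alternative run. With STING siRNA 4 of 6 passed, and all 4 were lower (VCAN, TMEM2, CD44 and CEMIP), beside 15% of all genes passing (6.14% higher and 8.86% lower). The VCAN call was the one of these that held in every alternative. The median change of the 6 genes was 0.58 with cGAS siRNA and -0.49 with STING siRNA, beside -0.02 and 0.00 over all genes.

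On the YAP and TAZ siRNA background, 2 of 6 genes passed the test with cGAS siRNA, beside 40.7% of all genes (20.5% higher and 20.2% lower). CEMIP was lower in cGAS_YT than in YT (-1.82 ± 0.17, limma, adjusted p = 2.36e-07) and CD44 higher (0.77 ± 0.09, adjusted p = 3.22e-06). HAS2 (-0.21 ± 0.26), TNFAIP6 (-0.12 ± 0.24), TMEM2 (0.18 ± 0.12) and VCAN (-0.12 ± 0.11) did not pass there, with adjusted p from 0.259 to 0.716, though without YT library 4 HAS2 was lower (-0.69, adjusted p = 0.0301). STING siRNA on that background gave 5 of 6 genes past the test, and all 5 were lower, beside 34.1% of all genes passing (16% higher and 18.0% lower). TNFAIP6 fell by 2.10 ± 0.24 (adjusted p = 4.21e-06), CEMIP by 1.60 ± 0.17 (adjusted p = 1.53e-06) and TMEM2 by 1.06 ± 0.12 (adjusted p = 6.49e-06). On the count scale of edgeR the fall of TNFAIP6 was larger (-3.30). HAS2 (-0.93 ± 0.26, adjusted p = 0.0103) and VCAN (-0.37 ± 0.11, adjusted p = 0.0136) fell less, and CD44 differed by 0.13 ± 0.09 (adjusted p = 0.279). HAS2 lost its call without YT 3 (-0.45, adjusted p = 0.157), STING_YT 15 (adjusted p = 0.0596) or STING_YT 16 (adjusted p = 0.0521), and VCAN without STING_YT 15 (adjusted p = 0.11).

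**Figure D4:**
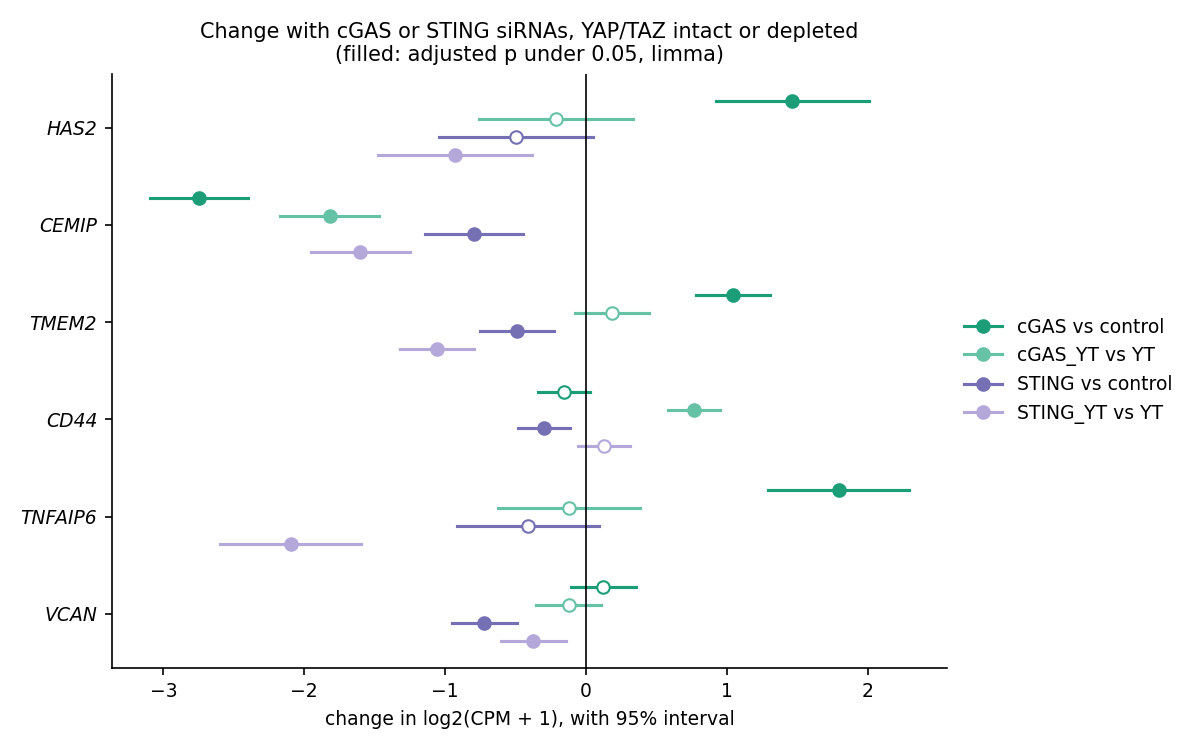
Change of each gene with the cGAS or the STING siRNA, against control and on the YAP and TAZ siRNA background (x axis, difference in log2(CPM + 1); bars are 95% intervals from limma; filled points have an adjusted p under 0.05). HAS2, TMEM2 and TNFAIP6 lie above 0 with cGAS siRNA against control (1.47, 1.04 and 1.79) and below 0 with STING siRNA on the YAP and TAZ siRNA background (-0.93, -1.06 and -2.10).

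The cGAS and STING groups were also compared with each other, a pair of comparisons chosen after values had been seen. Without the YAP and TAZ siRNAs 5 of 6 genes passed, beside 33.6% of all genes (16% higher and 17.6% lower in cGAS). TNFAIP6 (2.21 ± 0.24, limma, adjusted p = 2.88e-06), HAS2 (1.96 ± 0.26, adjusted p = 2.31e-05), TMEM2 (1.53 ± 0.12, adjusted p = 1.65e-07) and VCAN (0.85 ± 0.11, adjusted p = 1.78e-05) were higher in cGAS than in STING. CEMIP was lower (-1.95 ± 0.17, adjusted p = 2.55e-07), and CD44 differed by 0.14 ± 0.09 (adjusted p = 0.239). All 5 of these calls held in every alternative run. Between cGAS_YT and STING_YT 4 of 6 passed, beside 36.9% of all genes (19.7% higher and 17.2% lower in cGAS_YT), and all 4 were higher in cGAS_YT, namely TNFAIP6 (1.98 ± 0.24, adjusted p = 6.97e-06), TMEM2 (1.24 ± 0.12, adjusted p = 1.02e-06), HAS2 (0.72 ± 0.26, adjusted p = 0.0384) and CD44 (0.64 ± 0.09, adjusted p = 2.82e-05). HAS2 lost this call when any one of the 4 libraries was left out. CEMIP differed by -0.22 ± 0.17 (adjusted p = 0.323), and by -0.52 (adjusted p = 0.0286) without STING_YT library 16.

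Other genes of hyaluronan and versican metabolism were taken from lists of 66 genes, of which 45 were measured. The sister synthases HAS1 and HAS3 were not among the genes analysed. With the YAP and TAZ siRNAs 19 of the 45 were higher and 12 lower than control (median change 0.24, beside 0.00 over all genes), where 20.6% of all genes tested were higher and 20.9% lower. With cGAS siRNA 11 were higher and 9 lower (median 0.21), beside 11.1% and 14.3% of all genes. With STING siRNA 3 were higher and 8 lower (median -0.09), beside 6.14% and 8.86% of all genes. The counts for each list that follow have these same shares as their background. Of the 31, 20 and 11 calls in the 3 comparisons, 20, 10 and 3 held in every alternative run.

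Among 7 genes that supply the sugar nucleotides of the chain, 3 were higher and 2 lower in YT, beside 20.6% and 20.9% of all genes. UAP1, which makes UDP-N-acetylglucosamine in the last step of that route, fell from 41.3 ± 3.49 (SD, n = 2) to 17.4 ± 0.966 CPM (-1.20 ± 0.12 (SE), limma, adjusted p = 1.11e-06). PGM3, the enzyme of the step before it, rose from 81.9 ± 0.938 to 123 ± 9.73 CPM in YT (0.58 ± 0.09) and to 164 ± 8.27 CPM in cGAS (0.99 ± 0.09, adjusted p = 6.02e-07). GFPT1, the entry enzyme of the hexosamine route, rose in YT (0.66 ± 0.09, adjusted p = 1.34e-05). The fall of UAP1 with the YAP and TAZ siRNAs also passed on the cGAS (-0.97 ± 0.12) and STING (-0.89 ± 0.12) backgrounds.

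Among 5 genes of hyaluronan breakdown, 1 was higher and 0 lower in YT, a smaller share than the 41.6% of all genes that passed there. In cGAS 0 were higher and 3 lower, and in STING 0 were higher and 2 lower, where 25.4% and 15% of all genes passed. HEXA, which encodes a lysosomal enzyme that removes sugars from chain ends, was at 71.5 ± 2.73 (SD, n = 2) CPM in control, 27.3 ± 0.0471 CPM in cGAS and 31.0 ± 5.04 CPM in cGAS_YT. It fell by 1.36 ± 0.11 (SE) in cGAS against control (limma, adjusted p = 1.55e-07) and rose by 0.50 ± 0.11 in YT (adjusted p = 0.00114). HYAL2, a hyaluronidase anchored in the cell membrane, fell in STING (-0.50 ± 0.14, adjusted p = 0.0222), a call lost without control 1 (adjusted p = 0.0733), control 2 (adjusted p = 0.121) or STING 14 (adjusted p = 0.234), and differed by 0.07 ± 0.14 in YT (adjusted p = 0.736).

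Of 5 receptors and linkers to the cell cortex, 4 were lower and 0 higher in YT, beside 20.9% and 20.6% of all genes. HMMR, a hyaluronan-binding protein also known for its role at the mitotic spindle, fell from 20.9 ± 2.45 (SD, n = 2) to 2.87 ± 0.242 CPM (-2.50 ± 0.18 (SE), limma, adjusted p = 2.13e-08), and it also fell on the cGAS (-1.92 ± 0.18) and STING (-2.69 ± 0.18) backgrounds. EZR, which encodes ezrin, a linker of CD44 to actin, fell by 0.98 ± 0.11 in YT (adjusted p = 3.77e-06). LAYN, a membrane hyaluronan receptor, fell by 0.44 ± 0.08 in YT (adjusted p = 0.000551) and rose by 0.56 ± 0.08 in cGAS (adjusted p = 0.000129).

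From a list of hyalectans, link proteins, inter-alpha-inhibitor genes and PTX3, 4 genes were measured: HAPLN1, HAPLN3, ITIH5 and PTX3. No hyalectan of the list was among them. In YT 3 were higher (PTX3, HAPLN1 and HAPLN3) and 0 lower, beside 20.6% and 20.9% of all genes. The HAPLN1 call rests on few reads, 3 and 2 in the control libraries and 36 and 24 in YT. PTX3, a pentraxin that binds TSG-6 in hyaluronan matrix, was at 27.8 ± 0.400 (SD, n = 2) CPM in control, 68.0 ± 22.4 CPM in YT, 76.6 ± 4.51 CPM in cGAS, 53.5 ± 12.4 CPM in cGAS_YT, 22.0 ± 0.944 CPM in STING and 13.97 ± 3.82 CPM in STING_YT. These 6 means had the same order as those of TNFAIP6. PTX3 rose by 1.22 ± 0.20 (SE) in YT (limma, adjusted p = 0.000119) and by 1.43 ± 0.20 in cGAS (adjusted p = 5.67e-05). ITIH5, a heavy chain of the inter-alpha-inhibitor family, fell by 1.31 ± 0.19 in cGAS (adjusted p = 8.86e-05) and rose by 1.33 ± 0.19 from cGAS to cGAS_YT (adjusted p = 7.25e-05).

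Of 5 ADAMTS proteases that can cleave versican, 2 were higher and 1 lower in YT, beside 20.6% and 20.9% of all genes. In cGAS 2 were higher and 0 lower, and in STING 1 was higher and 3 lower, where 25.4% and 15% of all genes passed. ADAMTS9, like VCAN, was higher with the YAP and TAZ siRNAs on each background. The rise was 1.14 ± 0.24 on the control (limma, adjusted p = 0.00119), 0.91 ± 0.24 on the cGAS (adjusted p = 0.00962) and 1.98 ± 0.24 on the STING background (adjusted p = 6.53e-06). ADAMTS5 and ADAMTS15 passed as higher on the cGAS and STING backgrounds only, ADAMTS1 on the STING and ADAMTS4 on the control background only. ADAMTS15 was at 5.93 CPM in control, 11.9 CPM in STING and 20.9 CPM in cGAS_YT. On the cGAS background the ADAMTS9 call was lost without cGAS 7 (adjusted p = 0.0502), cGAS 8 (adjusted p = 0.0621) or cGAS_YT 10 (adjusted p = 0.0677), as that of VCAN was. ADAMTS1 fell by 0.72 ± 0.16 in YT (adjusted p = 0.0019) and by 0.92 ± 0.16 in STING (adjusted p = 0.00101). ADAMTS5 rose by 0.88 ± 0.14 in cGAS (adjusted p = 0.000222) and fell by 0.48 ± 0.14 in STING (adjusted p = 0.031), a call lost without control 1 (adjusted p = 0.242), STING 13 (adjusted p = 0.132) or STING 14 (adjusted p = 0.143).

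Of 19 genes that build chondroitin sulfate, the chain carried by versican, 10 were higher and 5 lower in YT (median 0.35), where 41.6% of all genes passed. In cGAS 3 were higher and 3 lower, and in STING 2 were higher and 1 lower, shares near the 25.4% and 15% of all genes that passed there. CHST11, a chondroitin 4-O-sulfotransferase, rose by 1.12 ± 0.23 in YT (limma, adjusted p = 0.00099). The chain-starting enzymes CSGALNACT1 and CSGALNACT2 rose by 0.98 ± 0.17 and 0.93 ± 0.14 in YT, and CSGALNACT2 rose on the cGAS (0.89 ± 0.14) and STING (0.96 ± 0.14) backgrounds too. XYLT1, which adds the first sugar to the core protein, fell by 0.75 ± 0.14 in YT (adjusted p = 0.000365).

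**Figure D5:**
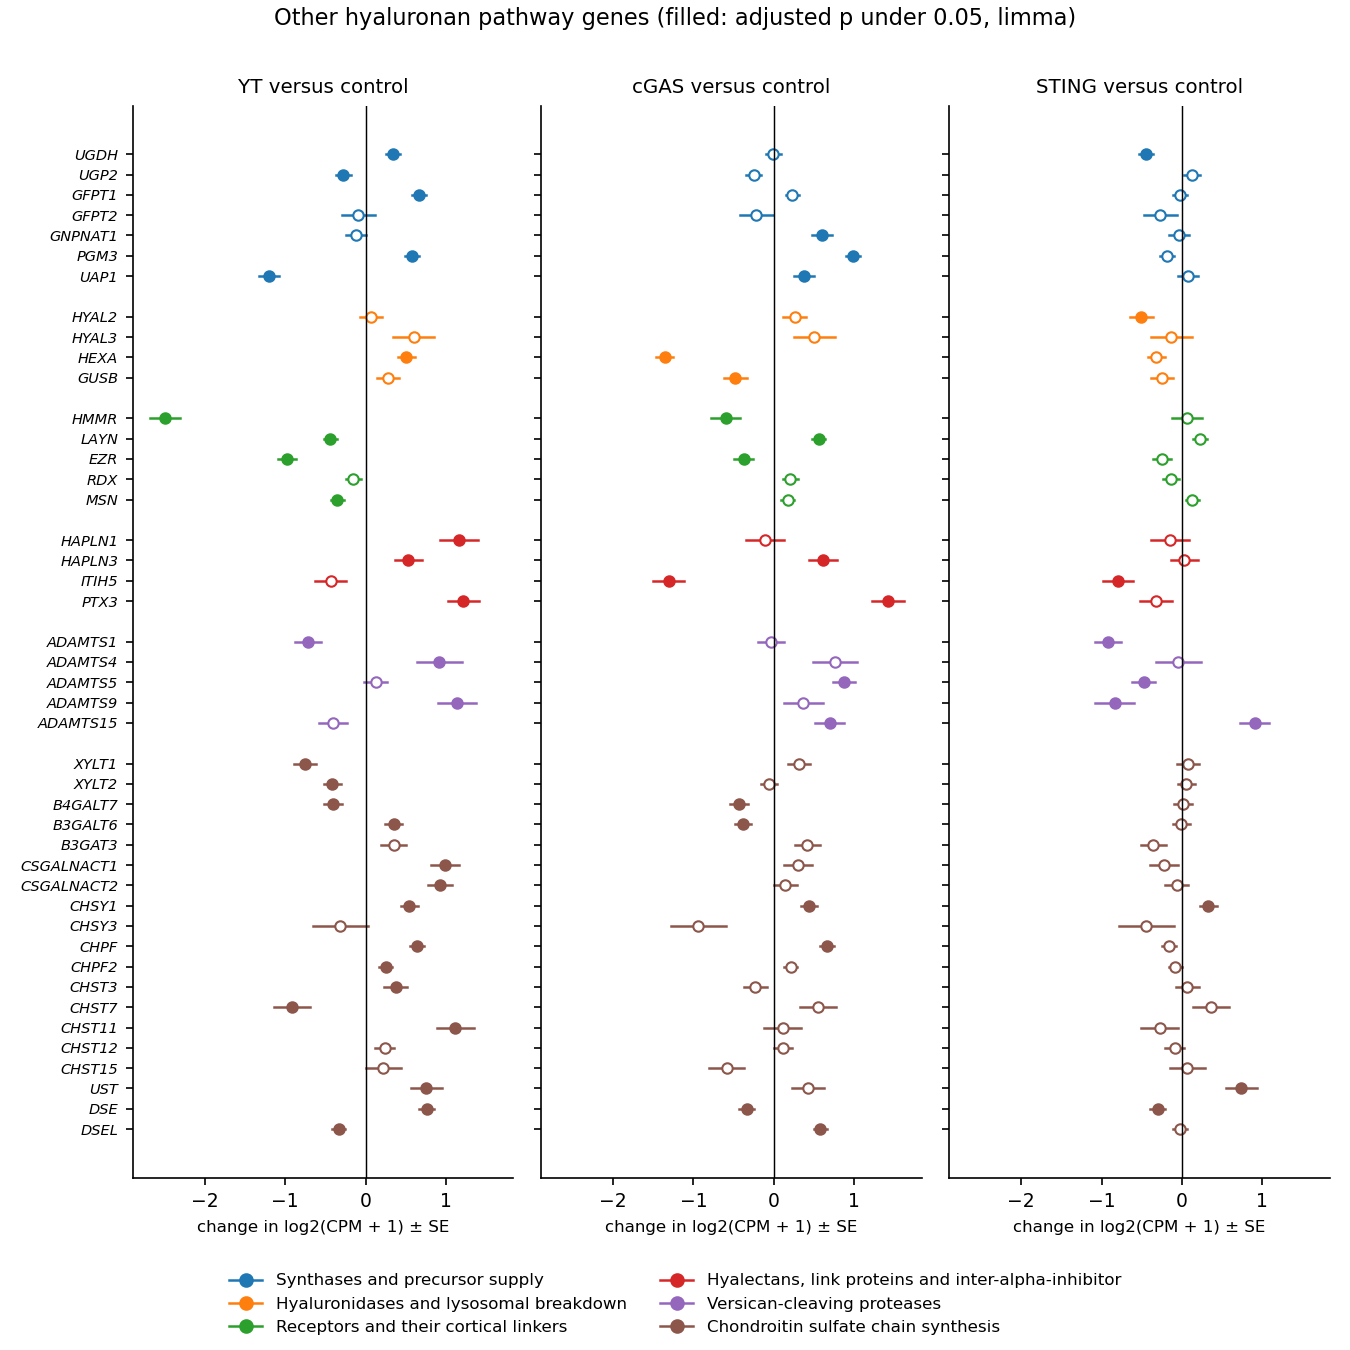
Change of 44 of the 45 other hyaluronan and versican pathway genes in YT, cGAS and STING against control (x axis, difference in log2(CPM + 1) with its SE; y axis, genes by list; filled points have an adjusted p under 0.05 in limma). HMMR (-2.50) and UAP1 (-1.20) are lowest in YT, HEXA (-1.36) and ITIH5 (-1.31) in cGAS, and ADAMTS1 (-0.92) and ADAMTS9 (-0.84) in STING.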

How the data were processed

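Gene levels were measured by RNA sequencing in 12 WI-38 libraries, 2 for each of 6 siRNA groups taken from the labels. Libraries were made with a QuantSeq 3′ mRNA kit, per the labels' protocols, and STAR 2.5.3a, featureCounts, edgeR and the hg38 build are named in the submitters' processing notes. The authors deposited a signal per gene, CPM values scaled by library size factors, for 13937 genes; whole reads were recovered from it for 100% of values within 0.01 reads, and the totals per library are sums of these reads. Of the symbols, 12571 were found in GENCODE 29. A level of 3 reads was 0.142 to 0.170 CPM, a floor that covers counting error only.

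A linear model with a mean-variance trend (limma 3.58.1, R 4.3.3) was fitted to log2(CPM + 1) over all 12 libraries, for the 13894 genes that reached 1 CPM in 2 or more libraries (6 residual degrees of freedom). P-values were adjusted by the Benjamini-Hochberg method over all genes within each of 11 comparisons, with a threshold of 0.05; 2 of the comparisons, cGAS against STING without and with the YAP and TAZ siRNAs, were added after values had been seen. The planned unit was CPM, and the deposited values were handled as such because the size-factor scaling keeps that scale. In data simulated for YT against control, 56.7%, 98.5% and 100% of genes changed 1.5-, 2- and 4-fold were recovered among 13894 genes. For the interaction of the YAP and TAZ siRNAs with cGAS siRNA these shares were 22.4%, 76.1% and 100%. The shares rest on 67, 67 and 66 changed genes and were not split by level or scatter. They therefore do not give the recovery in the measured data, where many more genes passed and scatter differs between genes. Nor do they give it for genes as low as HAS2 and TNFAIP6. Alternatives were other pseudocounts and filters, median-of-ratios scaling, a constant prior variance, fits on the compared groups only, edgeR 4.0.16 and DESeq2 1.42.0 on recovered reads, and leaving out each library. The genes, lists and tests were chosen with earlier results of these data known. Named genes are the 6 genes, the siRNA targets, genes that overlap them, genes of the pathway lists, and for each of the 6 the 3 genes of at least 5 CPM with the highest Pearson correlation over the 12 libraries. The values of 1 gene of the pathway lists are not reported here, though the list counts include it.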

Additional observations from a re-analysis of the deposited data

Results flagged for a closer look

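The effect of the YAP and TAZ siRNAs differed between backgrounds by the interaction test (limma, adjusted over all genes) in 8 cases, given as log2 difference, SE and adjusted p. Between the cGAS siRNA and control backgrounds it differed for TNFAIP6 (-1.91, 0.33, 0.00095), HAS2 (-1.68, 0.36, 0.00529), TMEM2 (-0.86, 0.18, 0.00347), CD44 (0.92, 0.12, 8.51e-05) and CEMIP (0.93, 0.23, 0.0137). Between the STING siRNA and control backgrounds it differed for TNFAIP6 (-1.69, 0.33, 0.00434), CEMIP (-0.81, 0.23, 0.0439) and CD44 (0.42, 0.12, 0.0466). Of all genes tested, 13.4% passed the cGAS interaction and 7.88% the STING interaction. In every alternative run 4 of the 5 calls with cGAS siRNA held (not CEMIP) and 1 of the 3 with STING siRNA (TNFAIP6). CEMIP lost the latter with a pseudocount of 4 (limma, adjusted p = 0.076) or only the compared groups fitted (0.0738). CD44 lost it with median-of-ratios scaling (0.0578) or only the compared groups fitted (0.092). Both interactions use the same control and YT libraries. YT library 3 stood apart for HAS2 (9.83 CPM against 4.58 CPM in YT library 4), and without it the HAS2 interaction with cGAS siRNA was -1.20 (adjusted p = 0.00835).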

How the results depend on the processing

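No paired analysis was possible because each replicate number occurs once, so no number is shared between groups. Of the results for HAS2, CEMIP, TMEM2, CD44, TNFAIP6 and VCAN over 11 comparisons and all alternatives, 827 kept direction and side of the threshold, 56 lost a call, 13 gained one and 10 changed sign, all 10 where no call had been made. The sign changes were TMEM2 in STING_YT against STING (0.00 as reported, -0.00436 with median-of-ratios scaling, -0.00448 with DESeq2, -0.029 to 0.039 over the libraries left out), VCAN in cGAS against control (-0.062 to 0.31, lowest without control 2), TNFAIP6 in cGAS_YT against YT (-0.43 to 0.19, highest without cGAS_YT 10), HAS2 in cGAS_YT against YT (-0.69 to 0.27) and in the STING interaction (-0.91 to 0.042), both highest without YT 3, and CEMIP in cGAS_YT against STING_YT (-0.52 to 0.077, highest without STING_YT 15). A constant prior variance ended 8 calls: HAS2 in YT against control (adjusted p = 0.0632) and in cGAS_YT against STING_YT (0.063), CD44 in STING against control (0.0865) and in the STING interaction (0.122), VCAN in cGAS_YT against cGAS (0.0677) and in STING_YT against YT (0.0627), and CEMIP in the cGAS (0.0538) and STING interactions (0.12). Genes past the threshold numbered 5773 in YT against control, or 3784 with only those groups fitted, and 1095 in the STING interaction, or 703 with a constant prior variance. With each library left out in turn they ranged from 4237 to 6034 in YT against control, 2050 to 2741 in cGAS (3528 with all), 879 to 1317 in STING (2084), 2258 to 3092 in cGAS_YT against cGAS (3848), 3674 to 4083 in STING_YT against STING, 4167 to 6107 in cGAS_YT against YT, 3015 to 5315 in STING_YT against YT (4731), 1111 to 3270 in the cGAS interaction (1866), 550 to 2555 in the STING interaction, 2971 to 3342 in cGAS against STING (4670) and 3530 to 4070 in cGAS_YT against STING_YT; a group is then 1 library, assumed to vary like the others. Depth limits HAS2 (38 to 254 reads a library) and TNFAIP6 (10 to 208 reads) most among the 6 genes.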

Other observations

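For each of the 6 genes, the 3 genes with the most similar level over the 12 libraries are given as a description; libraries of a group share their siRNAs, and so many genes share a pattern. TNFAIP6 was closest to MMP1, an interstitial collagenase (Pearson r = 0.980), TBCA (0.971) and PTX3 (0.970). VCAN was closest to SOX4 (0.975), a transcription factor, COL27A1 (0.965), a fibrillar collagen, and CASC15 (0.956). CD44 was closest to B3GALT2 (0.982), NABP1 (0.979) and GADD45B (0.973). CEMIP was closest to ZBED4 (0.968), COX8A (0.957) and MIOS (0.956), TMEM2 to ARNTL (0.958), TSPYL2 (0.958) and NDRG4 (0.954), and HAS2 to PFKFB4 (0.931), F2RL1 (0.923) and PARP14 (0.911).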
